A study of Mus musculus with 20 samples.

Results

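Of the 28013 H3K4me3 peaks deposited for mouse double-positive thymocytes, 10837 (38.7%) were under 2000 bp wide and had no peak of total RNA polymerase II (Pol II), of Pol II phosphorylated on serine 5 (Ser5P) or of the TATA-binding protein TBP within 2000 bp of either edge. They are called distant peaks here, and were chosen by 2 measured values, the width of the H3K4me3 peak and its distance to the nearest peak of those 3 machinery lists. The name covers those 3 lists only, since 834 distant peaks (7.70%) overlapped a peak of another general transcription factor. They were set against 5876 other H3K4me3 peaks under 2000 bp (21.0%) with a machinery peak within 2000 bp but not overlapping, called adjacent peaks. They were also set against 10025 narrow peaks (35.8%) that overlapped a machinery peak, called overlapping peaks. The other 1275 H3K4me3 peaks (4.55%) were 2000 bp or wider, and 56 of these were as far from the machinery as the distant peaks.

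The cells were CD4+/CD8+ double-positive T cells from the thymus of C57BL/6 mice. For FAIRE the labels add an age of 5 to 6 weeks and magnetic sorting for CD8 and then for CD4, which they do not state for the ChIP-seq samples. Chromatin immunoprecipitation and sequencing (ChIP-seq) or FAIRE, which recovers open chromatin without an antibody, gave 16 peak lists, 1 for each target, and there was a single condition. The remaining 4 of the 20 samples (both RNA libraries, input DNA and the immunoglobulin control) were not analysed here. Since no target had a second list, replicate error could not be measured and nothing was tested, read depth was unknown, and shares carry Wilson 95% intervals that cover counting error only.

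H3K4me3 is laid down around the start sites of genes, where Pol II and the general factors assemble into a preinitiation complex. H3K4me1 is the corresponding mark of enhancers and of the flanks of promoters, and chromatin with both marks is found at both. Polymerase paused near a start site carries Ser5P, and H3K36me3 follows elongating polymerase through gene bodies. Narrow H3K4me3 peaks with no called peak of total Pol II, Ser5P or TBP nearby can therefore be compared with both. Promoter and enhancer chromatin are represented by lists that the rule did not use.

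Distant peaks were short and weak H3K4me3 peaks. Their median width was 510 bp (quartiles 350 and 740 bp), against 610 bp for adjacent and 810 bp for overlapping peaks. Peak area, the sum of the authors' track within the peak, had a median of 108117 in distant peaks, 185304 in adjacent peaks and 339966 in overlapping peaks. Areas are the authors' values and rank peaks within a list only. The median distant peak stood at percentile 32.8 of the whole H3K4me3 list by area, while the largest reached percentile 97.6.

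The lower level was also present at equal width. Mean signal, the area divided by the width, had a median of 212 per bp in distant, 316 in adjacent and 428 in overlapping peaks. Among peaks of 600 to 800 bp it was 276 in 2011 distant peaks, against 379 in 1216 adjacent and 419 in 1831 overlapping peaks. Distant peaks had the lowest median of the 3 classes in each of the 10 width bins of 200 bp, although the bin below 200 bp separated them little, at 153, 160 and 161. Width classes were uneven, with 1765 distant peaks under 300 bp, 3438 from 300 up to 500 bp, 4532 from 500 up to 1000 bp, 905 from 1000 up to 1500 bp and 197 above that.

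**Figure D1:**
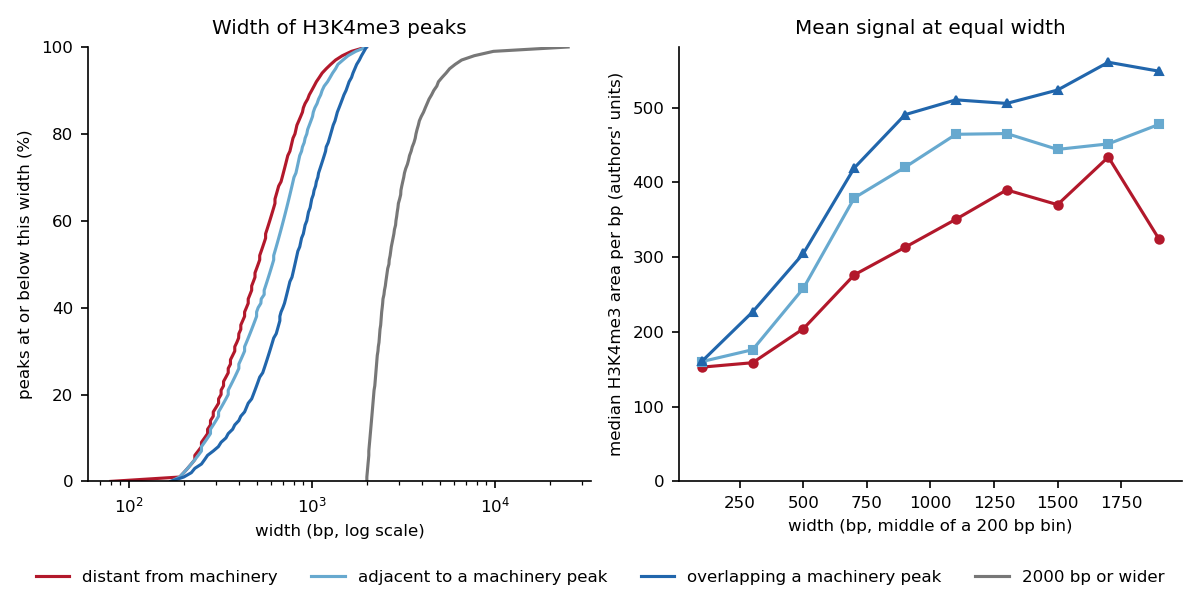
Left, cumulative share of H3K4me3 peaks (%) against width (bp, log scale) for the 4 classes. Right, median area per bp (authors' units) against width in bins of 200 bp, where the line of distant peaks, at 276 for widths of 600 to 800 bp, runs below those of adjacent (379) and overlapping (419) peaks.

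The values that the rule used are given as a description. The nearest machinery peak lay at a median of 30880 bp from a distant peak, with quartiles of 12250 and 72340 bp. It was within 5000 bp of 9.22% of them, within 10000 bp of 20.7%, beyond 100000 bp of 17.3%, and beyond 1000000 bp of 16 peaks. Total Pol II was the nearest of the 3 lists for 46.0%, TBP for 37.9% and Ser5P for 16.2%. Peaks on either side of the limits of the rule were as follows. The 233 distant peaks at 2010 to 2500 bp from the machinery overlapped H3K4me1 at 91.0% and a general factor at 10.7%, against 90.3% and 7.87% for the 267 adjacent peaks at 1510 to 2000 bp. The 44 distant peaks of 1800 to 1990 bp overlapped FAIRE at 22.7%, against 9.52% for the 21 equally distant peaks of 2000 to 2180 bp. A general factor lay at 25% and 23.8% of them, and both groups are small.

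H3K4me1 was the one mark that most distant peaks shared. It overlapped 8736 of them (80.6%, 79.9 to 81.3), against 88.0% (87.1 to 88.8) of adjacent and 87.4% (86.7 to 88.0) of overlapping peaks. This lower share moved with width. H3K4me1 overlapped 66.5% of distant peaks under 500 bp, 92.5% of those of 500 to 990 bp and 98.0% of those of 1000 bp or more. With both other classes reweighted to the widths of the distant peaks, the share of H3K4me1 was 85.6% in adjacent and 75.7% in overlapping peaks, so distant peaks lay between them.

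H3K4me1 lay over the distant peaks more often than beside them. It covered the whole of 2594 distant peaks (23.9%), against 19.4% of adjacent and 15.7% of overlapping peaks, shares not corrected for the shorter width of distant peaks. Of all bases in distant peaks it covered 73.2%, between the 79.3% of adjacent and the 70.8% of overlapping peaks. Around the peak centre, the share of distant peaks with H3K4me1 was 74.5% at the centre itself, 32.9% at 1000 bp, 16.2% at 2000 bp and 8.87% at 5000 bp. Overlapping peaks began at a similar 72.3% but kept 53.0% at 1000 bp and 33.2% at 2000 bp. The H3K4me1 domain around distant peaks was thus narrower, and these profiles are not corrected for the width of the H3K4me3 peak. H3K4me1 was present on both sides within 1000 bp of 6109 distant peaks that also overlapped it (56.4%), and 966 distant peaks (8.91%) had none inside or within 1000 bp.

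H3K36me3, which marks the body of transcribed genes, was rare in every narrow class and rarest in distant peaks. It overlapped 66 of them (0.609%, 0.479 to 0.774), against 2.08% (1.74 to 2.47) of adjacent and 1.57% (1.34 to 1.83) of overlapping peaks. In percentage points the gap was wider in the surroundings, where H3K36me3 peaks were more frequent in every narrow class. An H3K36me3 peak lay within 10000 bp of 29.8% of distant peaks, against 59.5% of adjacent and 57.8% of overlapping peaks, and the median distance to the nearest was 25980 bp, against 6515 and 7040 bp. Of the 66 distant peaks with H3K36me3, 35 were within 5000 bp of the machinery. Ser2P, the form of Pol II that elongates through genes, overlapped 8 distant peaks (0.0738%, 0.0374 to 0.146), against 0.204% of adjacent and 1.42% of overlapping peaks.

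**Figure D2:**
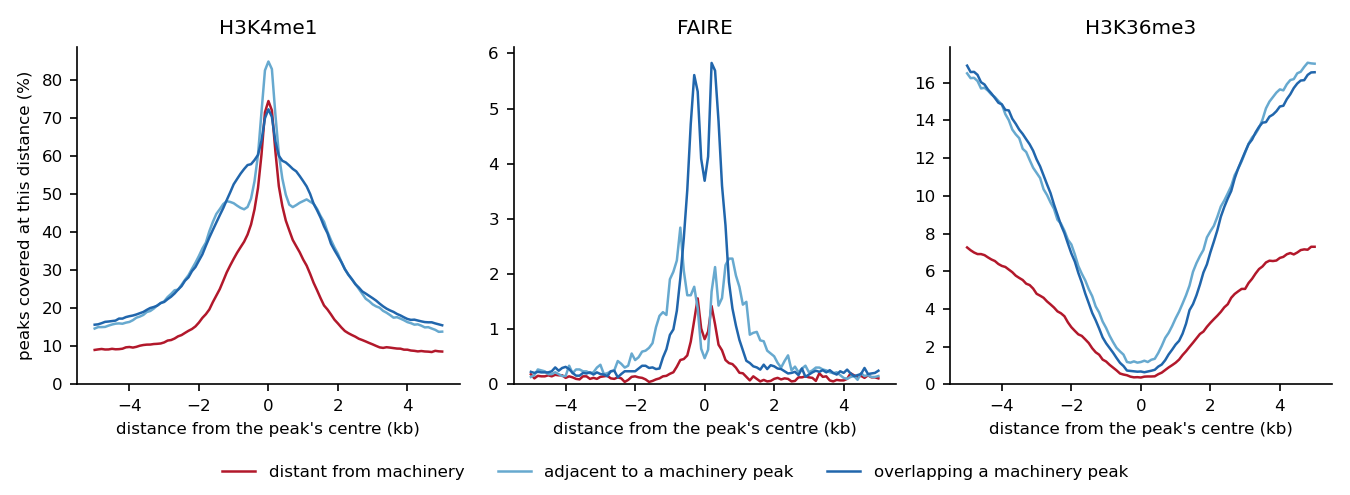
Share of peaks (%) in which the base at a given distance from the H3K4me3 peak's centre (kb) lies in an H3K4me1, FAIRE or H3K36me3 peak, for distant, adjacent and overlapping peaks, with a separate vertical scale in each panel. H3K4me1 falls to 16.2% at 2000 bp from distant peaks, H3K36me3 reaches 7.28% at 5000 bp against 16.7% in both other classes, and FAIRE has 2 low summits beside the centre.

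Open chromatin was found at few distant peaks, yet at more of them than of the adjacent ones. FAIRE peaks overlapped 773 distant peaks (7.13%, 6.66 to 7.63), 4.68% (4.17 to 5.25) of adjacent peaks and 32.8% (31.8 to 33.7) of overlapping peaks. Reweighting to the widths of the distant peaks left 4.87% for adjacent and 27.5% for overlapping peaks, and the order stayed the same. The surroundings ran the other way, since a FAIRE peak lay within 2000 bp of 13.7% of distant, 35.0% of adjacent and 45.6% of overlapping peaks. FAIRE covered 0.477% of adjacent peaks at the centre and 2.84% at 700 bp before it. Adjacent peaks by definition have a machinery peak beside them and none overlapping. The order of distant and adjacent peaks is thus not independent of the rule.

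FAIRE peaks sat towards the sides of distant peaks. The share of distant peaks covered by FAIRE was 0.821% at the centre and 1.56% at 200 bp before it. Of the 789 FAIRE peaks that touched distant peaks, 312 (39.5%) crossed an edge of the H3K4me3 peak and 164 (20.8%) had their own centre outside it. The shares were 34.2% and 17.4% at overlapping peaks, which are wider. Among CBP, ETS1 and the general factors, edge crossing at distant peaks ran from 15.2% of 79 TFIIA peaks to 32.3% of 260 ETS1 peaks. It was 17.8% for 332 TFIIE peaks and 29.1% for 278 CBP peaks. By area, the FAIRE peaks at distant peaks had a median percentile of 49.4 in the FAIRE list, against 66.1 at adjacent and 64.2 at overlapping peaks.

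CBP, a histone acetyltransferase that acts as a coactivator, and ETS1, an ETS-family transcription factor of T cells, each lay at a few percent of distant peaks. CBP peaks overlapped 261 (2.41%, 2.14 to 2.71), against 1.70% (1.40 to 2.07) of adjacent and 10.1% (9.53 to 10.7) of overlapping peaks. ETS1 peaks overlapped 257 (2.37%, 2.10 to 2.68), against 0.800% (0.602 to 1.06) and 7.72% (7.21 to 8.26). For both, as for FAIRE, the order of distant and adjacent peaks is not independent of the rule. The 260 ETS1 peaks in distant peaks made up 11.0% of the ETS1 list, and the 278 CBP peaks made up 4.36% of the CBP list. Neither set was weak in its own list. ETS1 peaks had a median area percentile of 58.8 in distant, 57.2 in adjacent and 55.5 in overlapping peaks, and CBP peaks had one of 69.3, 79.0 and 67.9.

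CBP and ETS1 were more frequent at distant peaks with open chromatin, though few distant peaks had all 3. Distant peaks with FAIRE were also wider, at a median of 640 bp against 500 bp without, and these shares are not corrected for width. CBP overlapped 13.8% (11.6 to 16.5) of distant peaks with a FAIRE peak and 1.53% (1.31 to 1.79) of those without. ETS1 overlapped 14.2% (11.9 to 16.9) with FAIRE and 1.46% (1.24 to 1.71) without. Among the 257 distant peaks with ETS1, 110 (42.8%) had FAIRE, 63 (24.5%) had CBP and 252 (98.1%) had H3K4me1. All 3 of FAIRE, CBP and ETS1 were found at 41 distant peaks, and at least 1 of them at 1052 (9.71%).

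The general factors were scarce at distant peaks. They assemble together with Pol II and TBP, so their shares are not independent of the rule. Their lists also differed in size, with 13518 peaks for Taf1, 11678 for TFIIE and 10999 for TFIIB. TFIIH had 8618 peaks, TFIIA 6588 and TFIIF 1262. Over all H3K4me3 peaks Taf1 overlapped 3.73% and TFIIB 20.4%. Shares therefore compare classes within a factor and do not rank the factors by occupancy. At least 1 of the 6 general factor lists overlapped 7.70% (7.21 to 8.21) of distant, 7.37% (6.73 to 8.07) of adjacent and 58.3% (57.4 to 59.3) of overlapping peaks. TFIIB, which bridges TBP and Pol II, was the most frequent, at 433 distant peaks (4.00%, 3.64 to 4.38), against 3.13% of adjacent and 41.8% of overlapping peaks. TFIIE, which brings in TFIIH, followed at 311 (2.87%, 2.57 to 3.20), against 3.10% and 40.8%.

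The remaining factors each lay at under 1% of distant peaks. TFIIH, which holds the helicase that opens the promoter and a kinase of the Pol II tail, overlapped 84 (0.775%), against 1.02% of adjacent and 11.1% of overlapping peaks. TFIIA, which stabilises TBP on DNA, overlapped 78 (0.720%), against 0.630% and 7.22%. The largest subunit of TFIID, Taf1, lay at 46 distant peaks (0.424%), against 0.391% and 7.57%, and TFIIF, the partner of Pol II in the complex, at 44 (0.406%), against 0.357% and 2.83%. For every one of these 4 factors the intervals of distant and adjacent peaks overlapped.

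**Figure D3:**
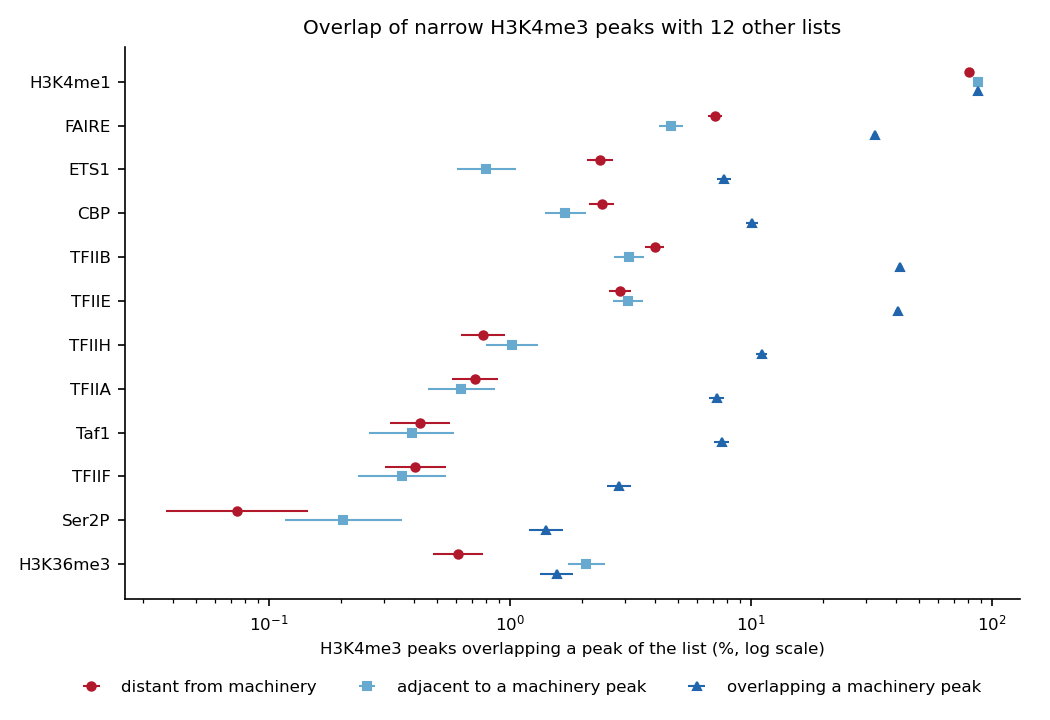
Share of H3K4me3 peaks (%, log scale) that overlap a peak of each of 12 lists outside the rule, for distant, adjacent and overlapping peaks, with Wilson 95% intervals. Distant and adjacent peaks lie close together for the general factors, such as TFIIB at 4.00% and 3.13%, while overlapping peaks lie far to the right at 41.8%.

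Most distant peaks with a general factor had a single one. Of the 834 with any, 696 had 1 of the 6, 117 had 2, 18 had 3 and 3 had 4. TFIIB and TFIIE met at 81 distant peaks, and Taf1 and TFIIH, which are parts of separate complexes, at 9. TFIIE overlapped 18.7% (15.3 to 22.6) of distant peaks with TFIIB and 2.21% (1.95 to 2.51) of those without. Taf1 overlapped 10.7% (5.74 to 19.1) of those with TFIIH and 0.344% (0.250 to 0.474) of those without. TFIIE, TFIIB and TFIIH peaks there ranked low in their own lists. The median area percentile of TFIIE peaks was 25.1 in distant, 29.4 in adjacent and 55.3 in overlapping peaks, and that of TFIIB peaks was 38.0, 41.5 and 61.3. For TFIIH it was 27.3, 25.5 and 39.8. Taf1 peaks in distant peaks stood at 46.7, and TFIIF peaks at 57.2, against 51.4 for TFIIF in overlapping peaks.

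TFIIB, TFIIE and TFIIF were more frequent at distant peaks with open chromatin, while for Taf1, TFIIA and TFIIH the intervals with and without FAIRE overlapped. TFIIB overlapped 17.2% (14.7 to 20.0) of distant peaks with FAIRE and 2.98% (2.67 to 3.33) of those without. The shares for TFIIE were 12.7% (10.5 to 15.2) and 2.12% (1.85 to 2.42), and those for TFIIF 1.68% (0.985 to 2.86) and 0.308% (0.217 to 0.437). TFIIH had 1.55% (0.890 to 2.69) and 0.715% (0.569 to 0.900), intervals that overlapped. Taf1 stood at 0.517% (0.201 to 1.32) and 0.417% (0.309 to 0.564), and TFIIA at 0.906% (0.439 to 1.86) and 0.705% (0.560 to 0.889), on 4 and 7 peaks with FAIRE. At distant peaks with ETS1, TFIIB reached 35.0% (29.4 to 41.0) and TFIIE 23.0% (18.2 to 28.5). Most distant peaks with a general factor, 620 of 834, nonetheless had no FAIRE peak.

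Counted over all 12 lists outside the rule, distant peaks were mostly plain. H3K4me1 and nothing else overlapped 7242 of them (66.8%), and 1961 (18.1%) overlapped none of the lists. The next most frequent combination was H3K4me1 with FAIRE, at 412 peaks (3.80%). At 1573 distant peaks (14.5%) there was FAIRE, CBP, ETS1 or a general factor. The 2101 distant peaks without H3K4me1 overlapped FAIRE at 3.14%, TFIIB at 1.29% and ETS1 at 0.238%, against 8.09%, 4.65% and 2.88% of those with H3K4me1.

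Among distant peaks of similar width, ETS1 and CBP were more frequent at low than at high mean H3K4me3 signal. To hold width nearly constant, the 4532 distant peaks of 500 to 990 bp were split into 4 equal groups of 1133 by mean H3K4me3 signal. From the lowest to the highest group, ETS1 overlapped 6.97%, 3.44%, 0.530% and 0.265%, or 79, 39, 6 and 3 peaks. CBP overlapped 4.94%, 2.74%, 0.971% and 1.77% of them. The intervals of the lowest and the highest group were apart for both, at 5.63 to 8.61 and 0.0901 to 0.776 for ETS1 and at 3.83 to 6.36 and 1.15 to 2.71 for CBP. Without a limit on width, groups by mean signal had ETS1 at 4.24%, 3.17%, 1.26% and 0.812% and CBP at 3.03%, 2.47%, 1.81% and 2.33%, and the lowest and highest intervals of CBP overlapped. Grouped by area, which grows with width, CBP lay at 1.73%, 2.44%, 2.73% and 2.73% and ETS1 at 1.92%, 2.77%, 3.21% and 1.59%, so the order by mean signal did not hold for area.

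FAIRE did not share that slope, since its shares were 9.18%, 6.97%, 7.33% and 8.83%, with overlapping intervals. TFIIB was more frequent at low signal, like CBP, at 7.59%, 3.88%, 1.94% and 3.88%. Its lowest and highest intervals were apart, at 6.19 to 9.28 and 2.91 to 5.17. Without a limit on width these intervals of TFIIB overlapped, at 3.48 to 4.99 and 3.85 to 5.43. In the groups of similar width TFIIE had 4.06%, 2.82%, 2.47% and 3.35%, and its lowest and highest intervals overlapped. H3K4me1 behaved in 2 ways at once. The share of peaks that it overlapped was 88.0%, 91.4%, 94.1% and 96.7% from the lowest to the highest group, while the median share of the bases that it covered was 100%, 89.3%, 85.2% and 80.8%. The distant peaks with the weakest H3K4me3 thus either lacked H3K4me1 or were wholly within it more often. H3K36me3 overlapped 22, 4, 0 and 1 peaks of the 4 groups.

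**Figure D4:**
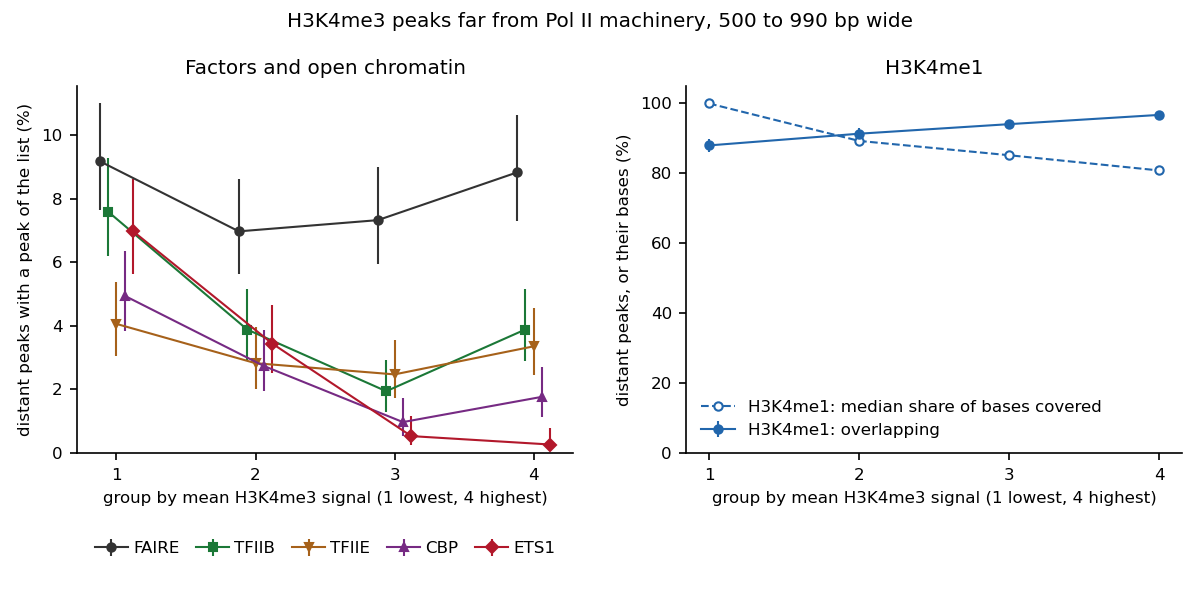
Distant peaks of 500 to 990 bp in 4 equal groups by mean H3K4me3 signal, 1133 in each. Left, share (%) overlapping FAIRE, TFIIB, TFIIE, CBP and ETS1, with Wilson 95% intervals, where ETS1 goes from 6.97% in the lowest to 0.265% in the highest group. Right, share (%) overlapping H3K4me1 (filled) and median share of bases covered by H3K4me1 (open), which run in opposite directions.

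Overlap with other lists varied with distance from the machinery. H3K4me1 overlapped 91.2% of the 999 peaks at up to 5000 bp, 85.1% at up to 10000 bp, 82.1% at up to 50000 bp, 76.6% at up to 100000 bp and 72.7% of the 1874 peaks beyond. A general factor lay at 11.4%, 10.1%, 7.83%, 6.19% and 5.39% in the same order. H3K36me3 lay at 3.50% (2.53 to 4.83) of the nearest group and at 1 of the 1874 peaks of the farthest. FAIRE lay at 8.31% (6.75 to 10.2) of the nearest and 5.71% (4.75 to 6.85) of the farthest group, and CBP at 2.80% (1.95 to 4.02) and 1.97% (1.44 to 2.71). The median mean signal of the nearest group was 171 per bp, below the 212 of all distant peaks.

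Many distant peaks had a close neighbour, and so had the other narrow peaks. Another distant peak lay within 2000 bp of 6192 of them (57.1%), while an H3K4me3 peak of another class lay that close to 383 (3.53%). The rule largely fixes that contrast, because narrow peaks of the other classes have a machinery peak close by. The median distance from a distant peak to the nearest other one was 700 bp, with quartiles of 210 and 38220 bp, against 280 bp between narrow peaks near the machinery. The distance between distant peaks was 34300 bp once H3K4me3 peaks within 500 bp were merged, and 62590 bp in the upper 50% of the H3K4me3 list by area. Counted in bins that widen with distance, spacings fell into a short and a long range. Of the 10816 spacings between consecutive distant peaks on a chromosome, 1108 were from 200 up to 500 bp and 1452 from 100000 up to 200000 bp, against 182 from 1000 up to 2000 bp.

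Joining distant peaks at most 2000 bp apart gave 7439 sites. Of these, 4645 held 1 peak, 2299 held 2, 413 held 3 and 82 held 4 or more. The peaks of a site share their surroundings and are not independent, so the intervals over peaks are too narrow. Sites of 2 peaks spanned a median of 1450 bp, and 681 sites (9.15%) spanned 2000 bp or more, the width that kept single peaks out of the rule. ETS1 overlapped 4.13% (3.60 to 4.74) of sites with 1 peak, 1.74% (1.28 to 2.36) of sites with 2, 3.63% (2.21 to 5.91) of sites with 3 and 2.44% (0.671 to 8.46) of larger ones, so there was no steady order by number of peaks. FAIRE overlapped 10.4%, 9.13%, 11.9% and 11.0% in the same order.

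The gaps inside these sites were short and mostly free of H3K4me1 as well. The 3398 gaps had a median length of 270 bp, and H3K4me1 peaks covered 11.1% of the gap bases, against 69.8% of the bases of the 2 distant peaks that flanked them. At the gaps between narrow peaks near the machinery, H3K4me1 covered 18.6% of gap and 69.7% of flanking bases. A FAIRE peak overlapped 128 gaps (3.77%, 3.18 to 4.46), and FAIRE covered 0.972% of gap bases, against 0.756% of flanking bases. At the 7042 gaps near the machinery, FAIRE overlapped 14.5% (13.7 to 15.4).

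**Figure D5:**
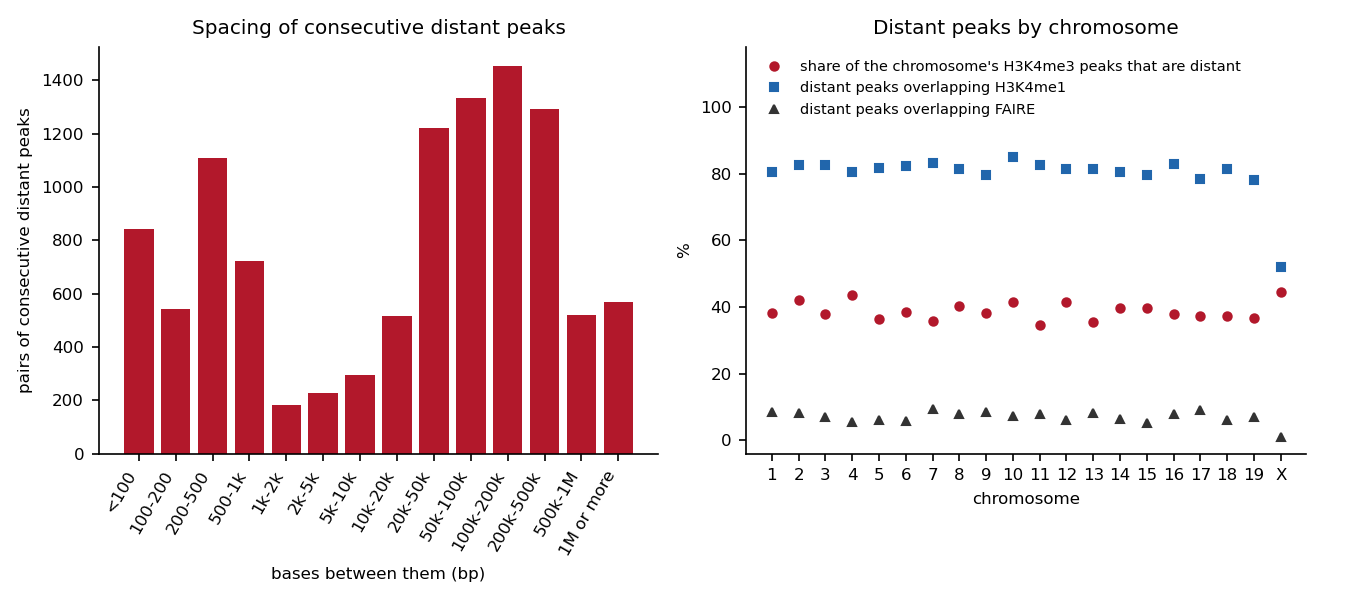
Left, number of pairs of consecutive distant peaks by the bases between them (bp), in bins that widen with distance. Many pairs were under 1000 bp, few from 1000 up to 2000 bp (182) and many from 20000 bp up. Right, for each chromosome, the share (%) of its H3K4me3 peaks that are distant peaks and the shares of distant peaks that overlap H3K4me1 and FAIRE, where X stands apart at 52.1% for H3K4me1 and 0.882% for FAIRE; Y, with 1 distant peak, is not drawn.

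Along the genome, distant peaks followed the other H3K4me3 peaks. Of 2650 windows of 1 Mb, 935 (35.3%) held no distant peak, the median was 2 and the highest count was 46. Across these windows the number of distant peaks and the number of other H3K4me3 peaks had a Spearman correlation of 0.78. It is given as a description, since both counts come from 1 list and share its signal track and threshold. Of the 935 windows without a distant peak, 189 held another H3K4me3 peak. The rest were empty for both counts and entered the correlation as ties. The 2 fullest windows were neighbours on chromosome 10, at 79000001 to 80000000 with 46 distant of 98 H3K4me3 peaks and at 80000001 to 81000000 with 45 of 107. Among autosomes the share of H3K4me3 peaks that were distant ran from 34.7% (32.8 to 36.6) on chromosome 11 to 43.6% (41.3 to 45.9) on chromosome 4, with a median of 38.1%. The share was lowest on Y, where 1 of 6 H3K4me3 peaks was distant, and highest on X, at 340 of 763 (44.6%, 41.1 to 48.1).

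Distant peaks on the X chromosome carried fewer other peaks than those on autosomes. H3K4me1 overlapped 52.1% (46.8 to 57.3) of the 340 on X and 81.5% (80.8 to 82.3) of the 10496 on autosomes, or 81.6% with the autosomal ones reweighted to the widths on X. FAIRE overlapped 3 on X (0.882%, 0.301 to 2.56), against 7.34% (6.85 to 7.85) on autosomes, and a general factor overlapped 5 (1.47%), against 7.89%. H3K4me3 itself was alike at distant peaks, with a median area of 108542 on X and 108101 on autosomes. In the other narrow classes it was lower on X. The median area was 127861 against 187252 at adjacent peaks and 307745 against 341286 at overlapping peaks. The lower share on X was not limited to distant peaks. H3K4me1 overlapped 68.2% of adjacent peaks on X and 88.5% on autosomes, and 68.3% of overlapping peaks on X and 87.8% on autosomes. FAIRE overlapped 13.5% of overlapping peaks on X and 33.2% on autosomes. The X chromosome held 2.72% of all H3K4me3 peaks, 1.77% of H3K4me1 peaks and 1.64% of FAIRE peaks, and the part of this in the values above was not tested. The median distance from the machinery was 79825 bp on X and 30105 bp on autosomes.

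Single regions are given by mm9 position, since no gene annotation of that build was used here. The 5 distant peaks of highest area all overlapped H3K4me1. The first, chr4:35102781-35104700, was 1920 bp wide, lay 14890 bp from the machinery and overlapped no other list. The next, chr3:129234951-129236660 (1710 bp) and chr7:28763291-28764770 (1480 bp), also had H3K4me1 alone, at 2380 and 70200 bp from the machinery. The fourth, chr7:52271771-52273400, had FAIRE, TFIIB and TFIIE peaks besides, and the fifth, chr7:30600101-30602010, had FAIRE. These last were also the 2 highest with FAIRE, followed by chr7:31016121-31018080.

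The 5 widest distant peaks were plain, which did not hold for all wide distant peaks. Of the 44 distant peaks of 1800 to 1990 bp, 22.7% overlapped FAIRE and 25% a general factor. The 5 of 1980 or 1990 bp, chr16:32644691-32646680, chr6:127099441-127101430, chr5:119011011-119012990, chr3:38785331-38787310 and chr8:4213121-4215100, overlapped H3K4me1 and none of the other 11 lists. H3K4me1 covered between 67.2% and 98.5% of their bases.

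The distant peaks with the most lists had a low mean H3K4me3 signal, though not all had a low area. The one with 8 of the 12 lists, chr9:69318551-69319120, was 570 bp wide and had a mean H3K4me3 signal of 117 per bp. It overlapped H3K4me1, FAIRE, CBP, ETS1, TFIIA, TFIIB, TFIIE and TFIIF and lay 4900 bp from the machinery. The CBP peak covered 45.6% of its bases. Of 5 peaks with 7 lists, the 4 of highest area were chr2:127752931-127754870, chr10:13712821-13713700, chr2:173679851-173681300 and chr4:117150181-117150980, with mean signals of 170, 204, 123 and 179 per bp. The areas of these 4, between 143470 and 329998, were above the median of 108117, and that of the peak with 8 lists, 66687, was below it. All 4 overlapped H3K4me1, FAIRE, CBP, ETS1, TFIIB and TFIIE, and none had a Taf1 peak. Their distance from the machinery ran between 9560 and 220190 bp.

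The strongest distant peaks with CBP or ETS1 were picked by area, so their higher mean signals follow largely from that choice. The 3 highest by area with CBP were chr9:121185991-121187450, with FAIRE, chr7:148067831-148068970, with H3K4me1 alone besides CBP, and chr2:84666511-84668110, with TFIIB. The mean signals of these 3 were 809, 986 and 645 per bp. The 3 highest with ETS1 were chr8:35207891-35209640, with TFIIB and TFIIE, chr10:3365771-3367300, with TFIIA and TFIIB, and chr4:118293141-118294540, with FAIRE and CBP. The mean signals of these were 510, 567 and 584 per bp.

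The peaks farthest from the machinery lay in sparse regions. Of the 3, 2 were on chromosome 2, chr2:176583541-176583800 at 1708880 bp and chr2:176990651-176991080 at 1301600 bp, and overlapped no list. The other, chr14:44502811-44503660 at 1271700 bp, overlapped H3K4me1 over 27.1% of its bases and stood at percentile 70.3 of the H3K4me3 list by area.

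Runs of distant peaks at most 10000 bp apart, with no other H3K4me3 peak between them, held up to 9 peaks, and 55 runs held 5 or more. The longest, chr11:23974251-23981960, had 9 peaks in 7.71 kb, all with H3K4me1, and no peak of FAIRE, CBP, ETS1 or a general factor in the whole span, which lay 67140 bp from the machinery. A run of 8 on chromosome 9, chr9:69605691-69613340, covered 7.65 kb in the same way, with H3K4me1 at 6 of its peaks and no factor. The third, chr7:134387391-134404760, spread 8 peaks over 17.37 kb with 1 FAIRE peak. Runs of 7 followed at chr11:98635331-98658970, with 4 FAIRE peaks and 1 each of CBP, TFIIE and TFIIH, and at chr7:148401191-148416420, with 1 TFIIF peak.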

How the data were processed

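Each of the 16 lists deposited by the authors gave chromosome, start, end and the signal area of its peaks on bins of 10 bp, in mm9 per the submitters' processing notes. Per the deposited file and track names, every track except FAIRE was scaled and background-subtracted, replicates were merged for 13 lists, and CBP, Taf1 and TFIIB came from 1 replicate. The sources used here do not give the aligner, peak caller, threshold or read numbers. Protein-G beads were used, or sheep anti-rabbit beads for ETS1, per the labels' protocols.

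Overlap meant at least 1 bp in common, and distance the bases between nearest edges. Reweighting gave the comparison peaks the width distribution of the distant peaks in bins of 200 bp. The counting code was checked against a brute-force count on simulated peaks. Python 3.11.15, numpy 2.4.6, pandas 2.3.3, scipy 1.17.1 and matplotlib 3.10.9 were used.

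The peaks, lists and classes were chosen with earlier results of these data known. Regions were named by rule as the 5 highest in area, 5 widest, 5 with most lists, 3 farthest from the machinery, 3 highest with each of CBP, ETS1 and FAIRE, the 5 longest runs, and the chromosomes with the highest and lowest share. Sequences, genes and start sites of mm9 were not used here, so the planned checks of start sites and cell markers were not run. Alternatives changed the distance, the width limit, the machinery lists, peak merging, both thresholds and the overlap rule.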

Additional observations from a re-analysis of the deposited data

How the results depend on the processing

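The number of distant peaks stayed within 1.5 times of 10837 except in the upper 50% of the H3K4me3 list by area (3150) and among peaks with no other H3K4me3 peak within 10000 bp (3168). That last setting and the joining into sites were added after seeing the data. The shares of H3K4me1, H3K36me3, FAIRE, any general factor and close neighbours are listed below where they left the interval of their main value; the cause was not tested. Over 14 alternatives CBP ran from 1.62% to 3.83%, ETS1 from 1.21% to 3.72%, TFIIA from 0.286% to 1.15%, TFIIF from 0.240% to 0.762%, and Taf1 and TFIIH from 0.194% to 0.812% and 1.30%. TFIIB reached 5.95% and TFIIE 4.48% with total Pol II alone as machinery, both were 0 by construction where their own lists counted as machinery, and they were 1.44% and 0.701% against the upper 50% of each other list. H3K4me1, at 80.6%, was 79.5% with a machinery distance of 5000 bp, 78.6% under 1000 bp of width, 82.3% with total Pol II alone as machinery, 79.3% with Ser2P, TFIIB and TFIIE added to it, 85.5% with H3K4me3 peaks within 500 bp merged, 95.6% in the upper 50% of the H3K4me3 list, 53.3% against the upper 50% of each other list, 78.7% with an overlap of 50% of the shorter peak, 88.4% within 500 bp, 81.5% on autosomes, 87.3% over sites and 79.5% over isolated peaks. H3K36me3, at 0.609%, was 0.829% with a machinery distance of 1000 bp, 0.315% with 5000 bp, 0.317% and 0.434% in the 2 upper 50% settings, 0.406% with the 50% overlap, 1.73% within 500 bp and 0.833% over sites. FAIRE, at 7.13%, was 6.41% under 1000 bp of width, 9.07% with total Pol II alone, 5.66% with the added machinery lists, 9.36% after merging, 10.0% and 3.70% in the upper 50% settings, 5.76% with the 50% overlap, 11.0% within 500 bp, 10.1% over sites and 10.5% over isolated peaks. Any general factor, at 7.70%, was 6.35%, 10.8%, 1.72%, 9.66%, 11.3%, 2.71%, 7.05%, 11.2%, 11.0% and 9.56% in the same 10 settings. Another distant peak within 10000 bp, at 63.2%, was 60.3% under 1000 bp of width, 67.7% with total Pol II alone, 30.7% after merging, 33.7% in the upper 50% of the H3K4me3 list and 13.1% over sites.

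Against all narrow peaks near the machinery, reweighting to the widths of the distant peaks turned the H3K4me1 difference to 0.0826 percentage points, where it was -7.00 before. The other differences kept their sign, at -0.741 (-1.15 before) for H3K36me3, -11.2 (-15.2) for FAIRE and -25.1 (-31.8) for any general factor. No paired analysis was possible because each target had 1 list and there was a single group. Merged replicates, unknown depth and unstated peak thresholds limit the shares, since an absent peak is not shown to be absent binding.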

Other observations

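The 56 H3K4me3 peaks that were as far from the machinery but 2000 bp or wider were taken as a group of their own. They overlapped H3K4me1 at 98.2% (90.6 to 99.7), FAIRE at 10.7% (5.00 to 21.5) and a general factor at 39.3% (27.6 to 52.4). TFIIB and TFIIE lay at 9 peaks each (16.1%), ETS1 at 3 and CBP at 2. All wide H3K4me3 peaks together overlapped FAIRE at 41.8% and a general factor at 82.3%.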
